A study of Gallus gallus with 4 samples.

Results

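CLDN1 and ITGB1 are the 2 genes described here, with all exon parts that the deposited table lists for them. An exon part is a stretch between neighbouring annotated exon boundaries, and the table counts sequenced fragments over each. The members were found by gene identifier, ENSGALG00000026862 for CLDN1 and ENSGALG00000007145 for ITGB1, which gave 22 exon parts (4 of CLDN1 and 18 of ITGB1) out of 220717 parts of 24513 identifiers. Both genes were named by the study for exons that it ranked on these same samples, so their tests are no independent evidence.

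The samples were cranial headfolds of chick embryos (Gallus gallus, strain Special black, HH stage 8-9), incubated for 27 h. Alcohol embryos received 0.43 mmol alcohol, reaching 52 mM, for 90 min, and control embryos received isotonic saline for the same time. All headfolds were collected 6 h after exposure began and pooled by 23, so a value is an average over embryos and over every tissue of the headfold. No deletion, transgene or other agent was part of either group. Each group was sequenced as 2 lanes of paired 75-base reads. The saline lanes were lanes 6 and 7 of one run, and the alcohol lanes were lanes 5 and 6 of a later-numbered run, so that effects of the run and of alcohol cannot be told apart in what follows. Whether a group's lanes are separate pools is not said by the labels, and the p-values measure the spread between lanes, which may be technical. The control lanes differed by little more than counting noise and were summed to 1 library, while the alcohol lanes differed by more and were kept as 2, so the spread in the main tests comes from the alcohol lanes. Total counts ranged from 15388474 to 20951322 per lane, and the mitochondrial genome took 44.2% of them in either control lane but 33.3% and 32.9% after alcohol. Identifiers carried gene names only where the study pairs them, so markers of headfold tissues were not checked.

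CLDN1 encodes claudin-1, a membrane protein with 4 membrane-spanning segments that forms the sealing strands of tight junctions between epithelial cells. ITGB1 encodes integrin beta 1, a single-pass membrane protein that pairs with one of many alpha subunits to make receptors for matrix proteins such as fibronectin and laminin. Through its short cytoplasmic tail it is linked to talin and the actin cytoskeleton. In the headfold, the neural and surface ectoderm are epithelia with junctions near their apical side and integrin contacts at their basal side. Neural crest cells leave that epithelium and migrate over matrix that integrins bind.

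CLDN1 lies on the plus strand of chromosome 9, from 13990203 to 14000682 in Gallus gallus 5.0. Its parts are 301, 165, 85 and 2012 bases long and are numbered from the 5′ end. ITGB1 lies on the plus strand of chromosome 2, from 14045947 to 14087348. Its parts are between 3 and 239 bases long except part 18, the 3′-most, which has 1155 bases and starts directly after part 17. The table does not separate coding from untranslated exon sequence. No other identifier lies inside either gene, and the nearest part of another gene is 11967 bases away from CLDN1 and 39905 bases away from ITGB1. Short parts can be undercounted if fragments that span several parts were left unassigned, which the study does not state. The same can follow if mates that cross an exon boundary did not map, since the study counted only fragments with both mates mapped. Parts 2, 3 and 17 of ITGB1 are shorter than the read. The other parts, except part 4 of CLDN1 and part 18 of ITGB1, have at most 301 bases and could be affected too. How far this shaped the counts per part was not tested.

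Both genes were abundant in every lane. CLDN1 had 30517 and 30113 counts in control and 31041 and 33371 counts after alcohol. It was the 24th most counted identifier of either control lane and the 20th of either alcohol lane. ITGB1 had 12353 and 11909 counts in control and 10559 and 10468 counts after alcohol, with a rank between 81 and 93. In CPM, counts scaled to a lane total of 1000000, per kilobase of exon parts, the CLDN1 level was 568 and 563 in control and 787 and 766 after alcohol. The ITGB1 level on this scale was 161 and 156 in control and 187 and 168 after alcohol. The claudin gene was thus above the integrin gene in every lane. Per kilobase the gap was 3.54-fold and 3.62-fold in control and 4.21-fold and 4.56-fold after alcohol. Its size depended on the length counted and was smaller over the 3′-most part of each gene. There CLDN1 stood at 705 and 698 CPM per kilobase in control and 966 and 930 after alcohol. ITGB1 stood at 456 and 442 in control and 497 and 439 after alcohol.

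In the main test neither gene as a whole was called between alcohol and control. Levels were compared with edgeR's quasi-likelihood test on gene sums at a false discovery rate of 0.1, after TMM normalization, which scales lanes so that most genes keep their level. This test called 27.2% of the 18093 genes tested. On the TMM scale CLDN1 stood at 1647 and 1629 CPM in control and at 1792 and 1733 after alcohol. The groups did not overlap, as was so for 68.9% of all genes tested (35.5% higher after alcohol and 33.3% lower). The log2 change of 0.10 ± 0.12 (SE) gave an adjusted p of 0.604 (unadjusted 0.415). ITGB1 stood at 666 and 644 CPM in control and at 610 and 544 after alcohol. These groups did not overlap either, with the alcohol lanes lower, a log2 change of -0.19 ± 0.13 and an adjusted p of 0.337 (unadjusted 0.165). DESeq2, which called 14.4% of the 12130 genes to which it gave an adjusted p, gave adjusted p of 0.772 for CLDN1 and 0.476 for ITGB1. In such bulk tissue, fewer cells that express a gene and less RNA per cell cannot be told apart.

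The size of both values depended on how lanes were scaled. With library size alone the median change of all genes moved from 0.01 to 0.36 on the log2 scale, and 43.3% of the genes were called, 39.9% higher. CLDN1 was then called higher (log2 0.46, adjusted p 0.00103), which is 0.10 above that median. ITGB1 was not called, and its sign turned (log2 0.17, adjusted p 0.307), while it stayed below the median of all genes. Library totals include the mitochondrial counts, whose share was lower after alcohol. Their part in the effect of the scaling was not tested. With mitochondrial counts left out, CLDN1 had 2613 and 2586 CPM in control and 3024 and 2928 after alcohol. ITGB1 had 1058 and 1023 against 1029 and 918. The ITGB1 groups then overlapped and the CLDN1 groups did not, which was not counted over all genes. Without alcohol lane 1 the log2 change was 0.07 for CLDN1 and -0.28 for ITGB1. Without alcohol lane 2 it was 0.13 for CLDN1 and -0.11 for ITGB1. In these fits the spread came from the control lanes and the lone alcohol lane was assumed to vary as they do. The lack of a call for either gene belongs to the main test and did not hold in every fit.

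**Figure D1:**
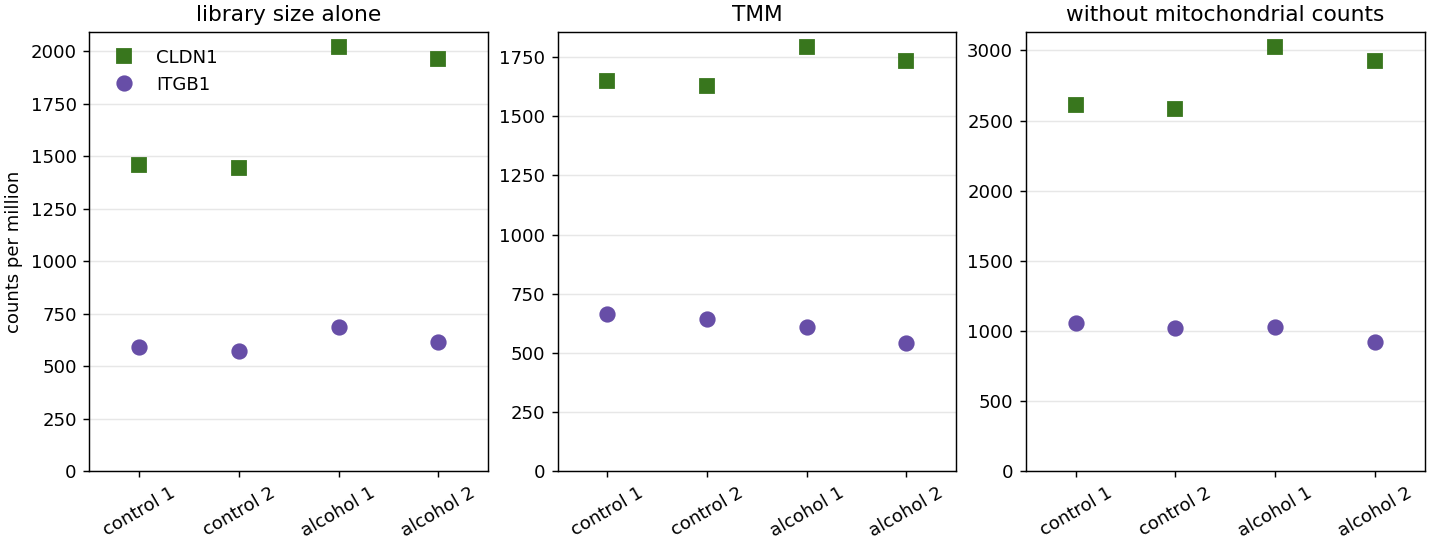
CPM of CLDN1 (squares) and ITGB1 (circles) in each of the 4 lanes, under library size alone, TMM, and library size without mitochondrial counts, each axis starting at 0. With library size alone the alcohol lanes of CLDN1 lie at 2017 and 1964 against 1457 and 1443 in control, a gap that narrows under the other scalings, and ITGB1 lies above control in 1 scaling and below it under TMM.

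Within both genes the counts piled up in the 3′-most exon part. Part 4 of CLDN1 held 29733, 29312, 29910 and 31780 counts (control 1, control 2, alcohol 1, alcohol 2, the order used from here on). Part 18 of ITGB1 held 11031, 10643, 8833 and 8618. No other part of either gene held more than 1303 counts in any lane. Over all lanes these leading parts held 96.6% of the CLDN1 counts and 86.4% of the ITGB1 counts. Among the 7098 genes with several parts and at least 1000 counts, the leading part held a median of 73.4%, and it was the 3′-most in 62.1% of them. A higher leading share than that of CLDN1 was seen in 8.85% of these genes, and a higher one than that of ITGB1 in 30.9%.

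The leading share was smaller per base of part length. Counted per base, part 4 of CLDN1 still held 82.3% of the gene in control and 73.8% in alcohol, as means of the lanes. Part 18 of ITGB1 held 58.8% in control and 45.7% in alcohol. In CPM per kilobase, part 18 stood at 456, 442, 497 and 439, and the next highest part of ITGB1, part 13, at 64.5, 59.4, 124 and 110. Part 17, which directly precedes part 18, stood at 28.2, 20.3, 27.6 and 21.4 and is shorter than a read.

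**Figure D2:**
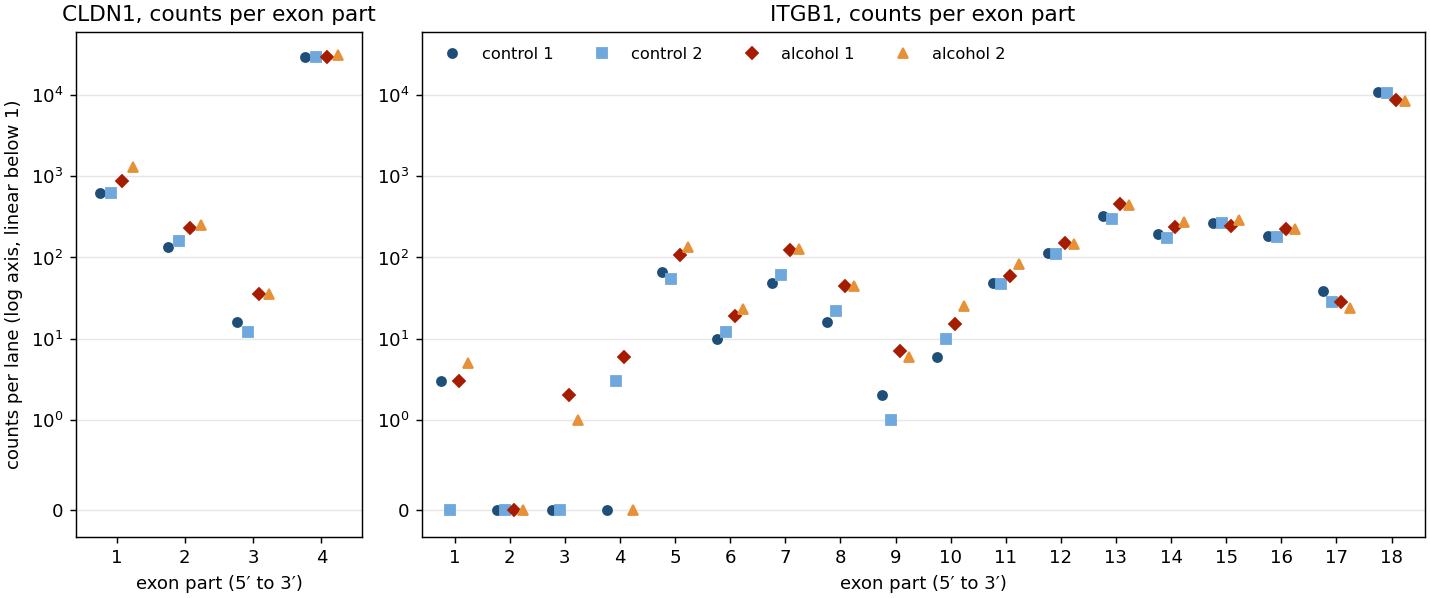
Counts in each lane for the 4 exon parts of CLDN1 and the 18 exon parts of ITGB1, numbered from 5′ to 3′, on an axis that is logarithmic above 1 and linear below it. Part 4 of CLDN1 and part 18 of ITGB1 stand above every other part of their gene in all lanes, and parts 5 to 10 of ITGB1 hold more counts in both alcohol lanes than in both control lanes.

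The 5′ parts of CLDN1 held a larger share of the gene in the alcohol lanes. Part 1 held 633, 631, 866 and 1303 counts, which is 2.07%, 2.10%, 2.79% and 3.90% of the CLDN1 counts of each lane. Part 2 held 135, 158, 230 and 253 counts, or 0.442%, 0.525%, 0.741% and 0.758%. Both alcohol lanes were above both control lanes in each part. Part 3, of 85 bases, held 16, 12, 35 and 35 counts, or 0.0524%, 0.0398%, 0.113% and 0.105%. Part 4 held 97.4%, 97.3%, 96.4% and 95.2%, lower in both alcohol lanes. Over all tested parts of the table, the lanes' shares did not overlap between the groups for 54.3% of parts (37.1% higher after alcohol and 17.3% lower).

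The alcohol lanes of CLDN1 did not hold the same shares. Parts 1 to 3 together held 3.64% of the gene in alcohol lane 1 (exact 95% binomial interval 3.44 to 3.86) and 4.77% in alcohol lane 2 (4.54 to 5.002). In the control lanes they held 2.57% (2.39 to 2.75) and 2.66% (2.48 to 2.85). Intervals cover counting error only. Part 1 differed between the alcohol lanes (two-sided Fisher's exact test, adjusted p 2.36e-11), as did part 4 (adjusted p 3.96e-09), while parts 2 and 3 were not called (adjusted p 1 for each). This test called 0.479% of the 94274 parts between the alcohol lanes and 0 between the control lanes, where 3313 had an unadjusted p under 0.05. It compares lanes, not conditions. For the first exon part, the difference between the alcohol lanes (2.79% and 3.90%) was larger than that between alcohol lane 1 and the control lanes.

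ITGB1 showed a graded pattern along the gene. Parts 1 to 9 together held 147, 153, 311 and 342 counts, or 1.19% (1.01 to 1.40), 1.28% (1.09 to 1.504), 2.95% (2.63 to 3.29) and 3.27% (2.93 to 3.63) of the gene. Parts 10 to 17 together held 9.51% (9.00 to 10.04), 9.35% (8.83 to 9.88), 13.4% (12.8 to 14.1) and 14.4% (13.7 to 15.1). The ratio of the mean shares, alcohol over control, was 2.51 for the 5′ stretch and 1.47 for the 3′ stretch that precedes part 18. Part 18 held 89.3%, 89.4%, 83.7% and 82.3%, a ratio of 0.929. No interval of an alcohol lane met one of a control lane in any of these 3 stretches. The intervals cover counting error only, and the same was not counted for stretches of other genes. For single parts, lane shares did not overlap between the groups in 54.3% of all tested parts. Between the alcohol lanes no ITGB1 part was called by Fisher's exact test (lowest adjusted p 0.435, part 18), which called 0.479% of all parts.

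**Figure D3:**
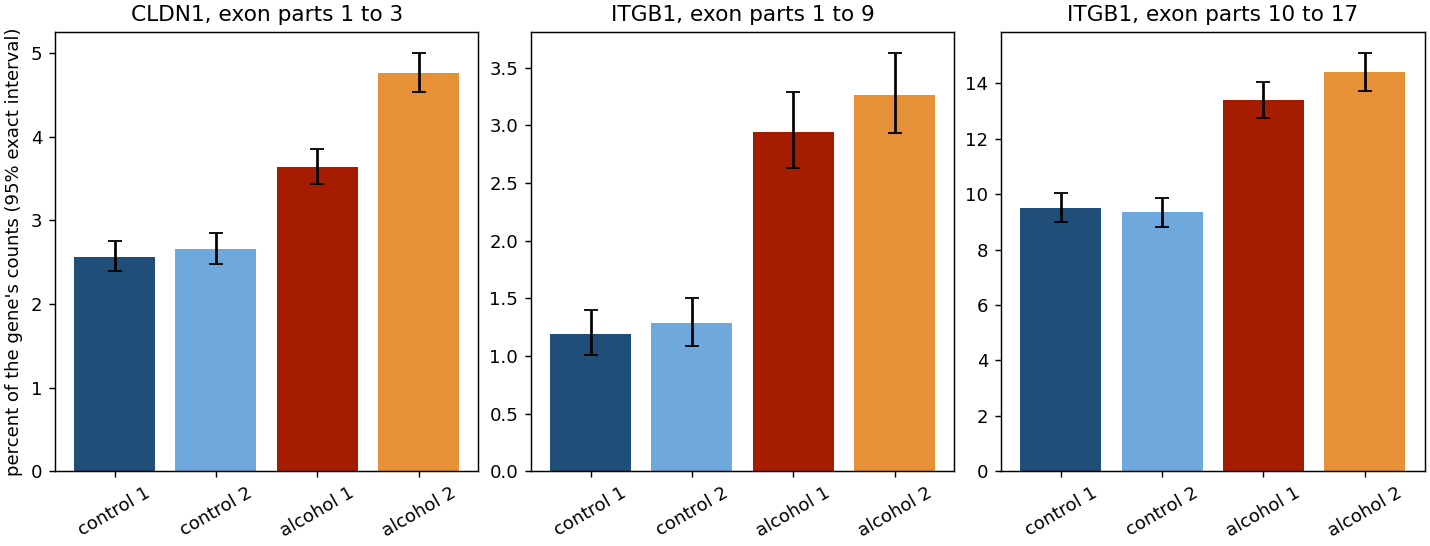
Percent of the gene's counts in exon parts 1 to 3 of CLDN1 and in parts 1 to 9 and 10 to 17 of ITGB1, 1 bar per lane from 0, with exact 95% binomial intervals that cover counting error only. Each alcohol bar is above both control bars, and the alcohol lanes differ from each other most in CLDN1 (3.64% and 4.77%).

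The counts of single ITGB1 parts were lowest in parts 1 to 4 and part 9, with no steady decline toward the 5′ end. Part 1 held 3, 0, 3 and 5 counts, part 3 held 0, 0, 2 and 1, part 4 held 0, 3, 6 and 0, and part 2, of 3 bases, held none in any lane. Where a lane held 0 counts, up to 3 counts are allowed, which is 0.143 to 0.195 CPM by lane. Parts 2, 3 and 4 stayed under the minimum of 10 counts over the libraries and were not tested. Part 5, the most 5′ part with more than a few counts, held 67, 55, 108 and 135 counts. Part 7 held 49, 60, 122 and 128. Both alcohol lanes were above both control lanes as counts in these 5′ parts, which was not counted over all parts. As shares, the groups did not overlap in 54.3% of all tested parts, with 37.1% higher after alcohol. Part 6 held 10, 12, 19 and 23 counts and part 8 held 16, 22, 44 and 44. Part 9 held 2, 1, 7 and 6, and part 10 held 6, 10, 15 and 25.

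From part 11 on the contrast of the raw counts was smaller. Parts 11 and 12 held 49, 47, 59 and 83 counts and 113, 110, 152 and 146 counts. Part 13, the fullest part after part 18, held 323, 296, 455 and 448, and part 14 held 193, 176, 238 and 274. Both alcohol lanes were again above both control lanes. Part 15 held 266, 266, 244 and 286 counts, where the groups overlap as counts but not as shares (2.15%, 2.23%, 2.31% and 2.73%). Part 16 held 186, 180, 224 and 222. Part 17 held 39, 28, 28 and 24 counts and was the only tested part whose shares overlapped between the groups (0.316%, 0.235%, 0.265% and 0.229%). Of the 15 tested parts of ITGB1, 13 had higher shares in both alcohol lanes and 1, part 18, had lower shares in both. Of all tested parts, at any distance from the 3′ end, these were 37.1% and 17.3%.

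Exon usage was tested as the change of a part beyond that of its gene (edgeR, diffSpliceDGE, false discovery rate 0.1). This test called 4.87% of the 94274 parts tested, 4.36% higher after alcohol and 0.511% lower. Usage of 2 of the 4 CLDN1 parts was called, both higher. These were part 1 (log2 0.68 ± 0.20, adjusted p 0.0440) and part 3 (log2 1.23 ± 0.37, adjusted p 0.0494). Part 2 was not called (log2 0.63 ± 0.23, adjusted p 0.114), and its value lies within 1 standard error of that of part 1. Part 4 was not called (log2 -0.02 ± 0.18, adjusted p 0.984). Since part 4 holds nearly all CLDN1 counts, its change is nearly that of the gene it is tested against, and a value near 0 follows from how the test is built.

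Of the 15 ITGB1 parts tested for usage, 6 were called, all higher. The strongest by adjusted p were part 7 (log2 1.40 ± 0.25, adjusted p 0.000472) and part 5 (log2 1.19 ± 0.25, adjusted p 0.00265). Part 8 followed (log2 1.41 ± 0.32, adjusted p 0.00651). Parts 13 (log2 0.75, adjusted p 0.0254), 10 (log2 1.51, adjusted p 0.0372) and 14 (log2 0.67, adjusted p 0.0682) were the others. Of the remaining parts, 7 had positive values that were not called, and parts 17 and 18 had negative ones (log2 -0.16 ± 0.31 and -0.10 ± 0.17). The highest fitted value, 2.26 for part 9 (adjusted p 0.110), rests on 3 control counts against 13 alcohol counts. Its share ratio was 5.0 with a counting interval of 1.37 to 27.4. Part 1 likewise rests on 3 control counts against 8 (share ratio 3.08, counting interval 0.739 to 18.01).

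The usage change of ITGB1 parts was lower toward the 3′ end. Over 15 parts, the Spearman correlation between the fitted change and the part number was -0.85. The decline was not steady, with values of 1.13 to 2.26 over parts 5 to 10 and 0.62 to 0.76 over parts 11 to 14. The parts share their lanes and their gene sum, and the correlation is a description. Usage changes in the whole table moved with distance from the 3′ end too. Their median was -0.07 for parts with their middle under 500 bases of exon sequence from the end of the gene, 0.12 from 500 to 1000 bases, 0.35 from 1000 to 2000 bases, 0.48 from 2000 to 3000 bases, and 0.48 beyond. Parts 5 to 14 and part 16 of ITGB1 lay above these medians, and parts 15, 17 and 18 lay below them. A positive usage change was seen in 13 of the 15 ITGB1 parts. In the whole table it was seen in 73.4% of parts from 1000 to 2000 bases, 76.9% from 2000 to 3000 bases and 75.3% beyond. With the smoothed trend of all parts subtracted, part 7 alone remained called among the members (log2 0.92, adjusted p 0.0523), against 1.55% of all parts. The Spearman correlation of the ITGB1 values with part number was then -0.84. The subtraction was chosen after seeing the data. With the trend taken off as an offset, the median of all parts was 0.30 in place of 0.21, so that this alternative did not centre the usage change. Of the members, 1 CLDN1 part and 5 ITGB1 parts were called, against 4.05% of all parts.

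**Figure D4:**
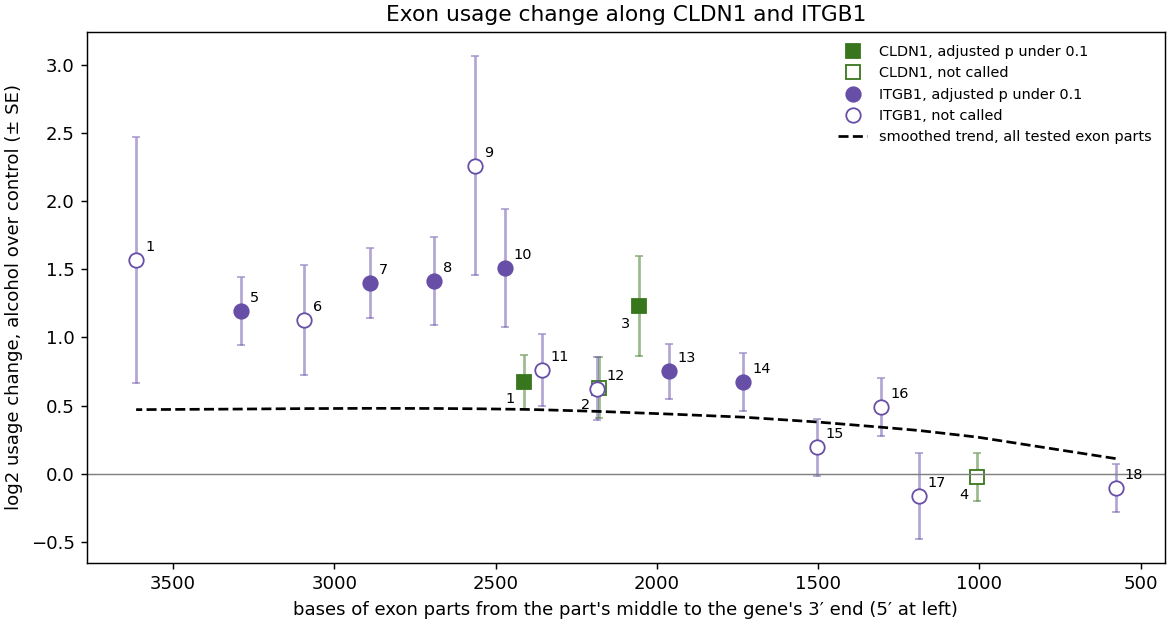
Log2 usage change, alcohol over control, with its standard error, of the tested parts of CLDN1 (squares) and ITGB1 (circles) against the bases of exon parts between the middle of the part and the 3′ end of the gene, 5′ at left, with part numbers beside the points and filled points called. ITGB1 parts 5 to 10 lie above 1, parts 17 and 18 lie below 0, and the dashed smoothed trend of all tested parts rises from 0.11 to 0.48.

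The calls for usage depended on the model. The form of the DEXSeq model was fitted with DESeq2 to the same 3 libraries, with 1 residual degree of freedom. This fit is not the authors' own run, whose settings and calls it does not represent. It called 0 of the 94274 parts, members included. An unadjusted p under 0.05 was given to 4723 parts (5.01%), among them 1 CLDN1 part and 5 ITGB1 parts. With 4 separate libraries, 1 per lane, a choice added after seeing the data, it called 33 parts of the 22995 with an adjusted p (0.144%) and again 0 members, with 1 CLDN1 part and 8 ITGB1 parts at an unadjusted p under 0.05, beside 6.85% of all parts. Under this model the values of ITGB1 parts had the same signs, 13 positive and 2 negative. It compares a part with the remainder of its gene, not with the whole gene, and its values for the leading parts were further from 0 than those of edgeR. With 4 libraries, ITGB1 part 18 had a log2 usage change of -0.78 ± 0.39 (adjusted p 0.355, unadjusted 0.0452) and CLDN1 part 4 one of -0.70 ± 0.41 (adjusted p 0.424, unadjusted 0.0892).

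The level of each part was also tested apart from its gene, with TMM factors of the part table. This test called 14.2% of 98031 parts, 5.69% higher after alcohol and 8.48% lower. Of the CLDN1 parts, part 1 (log2 0.54 ± 0.21, adjusted p 0.0840) and part 3 (log2 1.09 ± 0.36, adjusted p 0.0316) were called higher. Part 2 had a value of 0.49 (adjusted p 0.1604) and part 4 one of -0.16 (adjusted p 0.724). Of the 15 ITGB1 parts, 4 were called higher and 1 lower. The higher parts were 5 (log2 0.76), 7 (log2 0.97), 8 (log2 0.98) and 10 (log2 1.08), with adjusted p from 0.00530 to 0.0988. The lower part was part 18 (log2 -0.53 ± 0.21, adjusted p 0.0934), the part that holds most of the gene. The call of part 18 was lost in edgeR with the mitochondrial genome left out (adjusted p 0.109) and with library size alone (log2 0.06). It was kept with every lane its own library (adjusted p 0.00198). Minimums of 1 count and of 10 counts in every library kept it too (adjusted p 0.0526 and 0.0601). DESeq2 also called part 18 lower (log2 -0.56, adjusted p 0.0181). With 1 lane left out its log2 value ranged from -0.64 to -0.38, and most such fits did not keep the call.

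The direction of the leading parts depended on the scaling. With library size alone, which moved the median of all parts from 0.04 to 0.63, all 4 CLDN1 parts and 11 of the 15 ITGB1 parts were called, each higher, against 32.6% of all parts (31.2% higher). The value of CLDN1 part 4 was then 0.44 (adjusted p 0.00974) and that of ITGB1 part 18 was 0.06 (adjusted p 0.779), both below the median of all parts. Without alcohol lane 1 or without alcohol lane 2, edgeR called 0 parts of the whole table for level, members included. In these fits, under TMM, the value of ITGB1 part 18 was -0.64 without alcohol lane 1 and -0.38 without alcohol lane 2. That of CLDN1 part 4 was -0.20 and -0.07. With all lanes, DESeq2 on the 3 libraries gave no adjusted p to 1 of the 4 CLDN1 parts and 6 of the 15 ITGB1 parts. It called 1 CLDN1 part and 2 ITGB1 parts, against 25.1% of all parts with an adjusted p. The summed level of parts 1 to 17 of ITGB1 on the TMM scale of gene sums was 71.3 and 68.5 CPM in control and 99.6 and 96.1 after alcohol, a ratio of means of 1.40. That of part 18 was 595 and 576 against 510 and 447, a ratio of 0.818. For CLDN1 the ratios were 1.73 for parts 1 to 3 and 1.06 for part 4, whose sign thus turned between the TMM factors of gene sums and those of the part table (log2 -0.16). Summed, the parts before the 3′-most one were thus higher on this scale in the alcohol lanes of both genes, as share and as level. Of these measures the share alone does not use the scaling. Within the ITGB1 sum, parts 15 and 17 had negative level values with the factors of the part table (log2 -0.23 and -0.59, neither called).

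**Figure D5:**
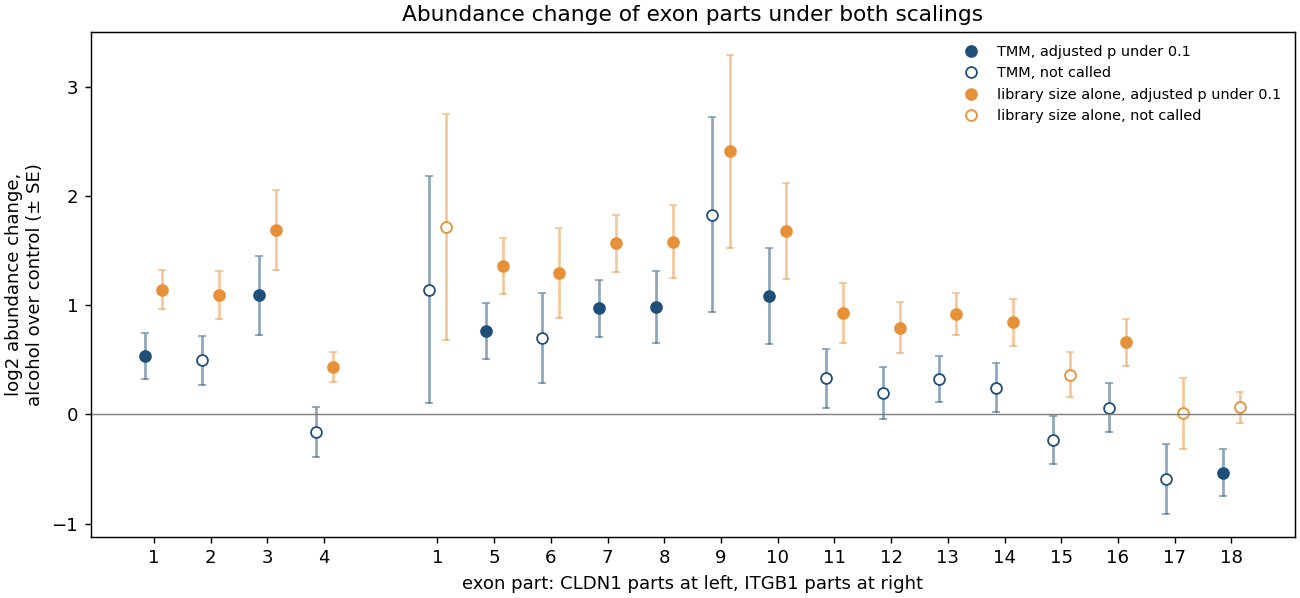
Log2 change in level, alcohol over control, with its standard error, of the tested parts of CLDN1 (left) and ITGB1 (right) under TMM and under library size alone, filled where called. Every value is higher under library size alone, where ITGB1 part 18 lies at 0.06 in place of -0.53 and CLDN1 part 4 at 0.44 in place of -0.16.

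Loss of share by the leading part was common in the table. Among the 7098 well-counted genes, the leading part had a lower mean share after alcohol in 80.9%, with a median change of -3.10 percentage points and quartiles of -6.47 and -0.61. The change of CLDN1 was -1.59 points, and 64.6% of the genes had a larger fall. That of ITGB1 was -6.34 points, and 25.6% of the genes had a larger fall. Neither gene thus stood at the edge of the table in this measure.

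The other cell adhesion genes were taken from the group to which the study assigned CLDN1 and ITGB1. The study chose that group on these samples, so its direction is no independent evidence. Of its 13 other genes with an identifier, 0 were called higher, 4 were called lower and 9 were not called, with a median log2 change of -0.22 beside 0.01 for all genes tested. Of all genes, 15.5% were called higher and 11.6% lower. The lower values were not particular to cell adhesion genes. In its list of top exons the study pairs 38 other genes with an identifier, the 13 cell adhesion genes included. Of these 38, 1 was called higher, 14 were called lower and 23 were not called. Their median was -0.20. In the cell adhesion group, those called lower included ACTB and ACTG1, the cytoplasmic actins (log2 -0.51 and -0.46, adjusted p 0.00188 and 0.00766). The others were TUBB4B, a beta tubulin (log2 -0.34, adjusted p 0.0634), and TMSB4X, which binds actin monomers (log2 -0.40, adjusted p 0.0242). The identifiers of ACTB and ACTG1 each combine overlapping genes, whose counts cannot be separated. FN1, which encodes the integrin ligand fibronectin, was not called (log2 -0.09 ± 0.13, adjusted p 0.673), nor was CDC42, a small GTPase of the actin cytoskeleton (log2 0.02 ± 0.14, adjusted p 0.944). PTPRF, a receptor phosphatase of cell contacts, had a value of -0.02 (adjusted p 0.929). With library size alone the values of ACTB, ACTG1 and TMSB4X stayed negative (-0.16, -0.11 and -0.05), while that of TUBB4B turned (0.02).

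Genes with a pattern most like each member were sought among the 39 other genes that the study pairs with an identifier in its list of top exons, by the Euclidean distance of centred log2 CPM over the 4 lanes. For CLDN1 these were POGLUT1 (distance 0.07), which adds glucose to proteins such as Notch, HSPA5 (0.08), a chaperone of the endoplasmic reticulum, and DDX3X (0.11), an RNA helicase. The median distance of the candidates from CLDN1 was 0.32. For ITGB1 these were HNRNPA3 (0.04), an RNA-binding protein, HSPD1 (0.04), a mitochondrial chaperone, and SRSF1 (0.05), a splicing factor, with a median distance of 0.22. The distance between CLDN1 and ITGB1 was 0.30, since CLDN1 was slightly higher and ITGB1 slightly lower in the alcohol lanes on this scale. With 4 lanes in 2 groups, the distance reflects mostly how far a gene moved between the groups.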

How the data were processed

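Reads were trimmed by the authors, aligned with Bowtie2 to Gallus gallus 5.0 and counted per exon part with featureCounts 1.5.2, unstranded, with both mates mapped. The authors deposited these as raw counts. Their second table holds their own comparison (DEXSeq fold changes, p-values and pathway groups) and was not used. Gene names came from the paper, and a reference of a later assembly shared 0 identifiers with the counts, so lists of tight junction (34 symbols), integrin receptor (20), integrin ligand (17) and focal adhesion genes (25) could not be matched and have no result.

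Lanes of a group were summed where the chi-square over genes, per degree of freedom, was under 1.1 (1.04 for control, 5.68 for alcohol). Parts and genes with at least 10 counts were tested with edgeR 4.0.16 in R 4.3.3 (TMM, quasi-likelihood, Benjamini-Hochberg adjustment at 0.1 over all features), and with DESeq2 1.42.0 as an alternative. Other alternatives were library size alone, lanes kept apart, other count minimums, no mitochondrial counts, and each lane left out. The 3′ distance trend (lowess span 0.2) was also removed, by subtraction of a single fit or as an offset in 2 passes. Intervals and lane tests used scipy 1.17.1. The main edgeR and DESeq2 fits and the lane test were tried on simulated counts with known changes. The named genes were every part of both members and the 3 nearest genes by pattern. FN1, CDC42 and PTPRF were named from the cell adhesion list after their values were seen. Members and lists were chosen with earlier results of these data known.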

Additional observations from a re-analysis of the deposited data

How the results depend on the processing

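No paired analysis was possible because replicate numbers follow accession order and the lanes of the groups share only 1 lane number. The causes of the differences below were not tested. Over all genes, 4917 were called for level in the main analysis, 7826 with library size alone, 7747 with every lane its own library and 1747 with DESeq2, and 4115 to 7973 when 1 lane was left out. Part level gave 13888 calls, 31957 with library size alone and 4564 with DESeq2, and 0 to 10741 without 1 lane (at 0, 16636 and 17069 parts had an unadjusted p under 0.05). Usage gave 4590 calls, 9125 with every lane its own library, 2729 with a minimum of 1 count, 1462 with the trend subtracted, 0 with the DEXSeq model and 33 with that model on every lane, and 1960 to 9095 without 1 lane.

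The gene value of CLDN1 was 0.46 with library size alone and 0.067 to 0.13 without 1 lane. That of ITGB1 was 0.17 with library size alone and -0.28 to -0.11 without 1 lane. With every lane its own library the ITGB1 value was -0.18 (edgeR, adjusted p 0.0503, called). That fit called 7747 of the 18093 genes tested. Of the 4 CLDN1 parts, 2 were called for usage in the main analysis (4.87% of all parts) and 1 with the trend taken off (4.05%). The number was 0 with the trend subtracted (1.55%). It was also 0 with the DEXSeq model on 3 libraries (0%) or on every lane (0.144%). For level, 2 parts were called (14.2% of all parts), and 4 with library size alone (32.6%). The number was 1 with a minimum of 1 count (12673 of 165108 parts) and 1 with DESeq2 (25.1%). Of ITGB1, 6 parts were called for usage, 11 with every lane its own library, 1 with the trend subtracted, 0 with either form of the DEXSeq model, and 5 to 12 without 1 lane. For level, 5 ITGB1 parts were called, 11 with library size alone, 2 with a minimum of 1 count and 2 with DESeq2. With the mitochondrial genome left out 3 were called, beside 13824 of 97993 parts. For both genes, the number of parts called changed in some fits with 1 lane left out, and the usage calls then included lower ones, for the leading part. Counted per base, part 4 of CLDN1 held 82.3% and 73.8% of its gene (control and alcohol) and part 18 of ITGB1 58.8% and 45.7%, and with parts under the read length left out, part 18 held 89.6% in control.

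Signs turned for values near 0 or under another scaling, also for CLDN1 part 4 with the TMM factors of gene sums (ratio 1.06). With library size alone, the level values were 0.44 for CLDN1 part 4 and 0.36, 0.0083 and 0.063 for ITGB1 parts 15, 17 and 18. Part 16 of ITGB1 had a level value of -0.056 with a minimum of 1 count and -0.028 to 0.21 when a replicate was left out (lowest without alcohol replicate 1). For usage, ITGB1 part 15 was -0.19 with the trend subtracted, part 17 ranged from -0.35 to 0.071 when a replicate was left out (highest without control replicate 1), and CLDN1 part 4 and ITGB1 part 18 were 0.025 and 0.10 with the trend taken off. Only CLDN1 part 4 was called among these, with library size alone. The trend subtraction and the DEXSeq model on every lane were chosen after seeing the data. Depth limits the 5′ end of ITGB1, where parts 1 to 4 and part 9 held at most 3 counts in each control lane.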
